A study of Arabidopsis thaliana with 12 samples.

Results

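Roots of an Arabidopsis thaliana line that overexpresses SAHY1 (SAHY1OE) were compared with roots of Col-7, the wild type that the labels give for this line, on ATH1 GeneChips, arrays on which a group of short oligonucleotides, the probe set, stands for a transcript. The arrays were taken by their titles: 3 of SAHY1OE and 3 of Col-7, which together were 6 of the 12 arrays of the study, and every probe set other than the 64 control probe sets was examined. SAHY1OE plants carried the line labelled SAHY1 overexpression line 4-1, a single line, and its construct is not stated. The SAHY1 overexpressors that the methods do describe carry SAHY1 fused to Myc under the constitutive promoter of cauliflower mosaic virus, and whether line 4-1 is one of them is not given. Col-7 plants were wild type, and the other 6 arrays held the T-DNA insertion mutant sahy1 and its own wild type, Col-0. All plants were 12 days old, with 5 days on basal medium and another 7 days grown upright after transfer, and no salt or other treatment was named for these arrays. The methods describe the replicates as biological triplicates.

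Ribosomes are put together in the nucleolus, where a long precursor rRNA is transcribed by RNA polymerase I, cut and trimmed into mature rRNAs, and joined with ribosomal proteins by many assembly factors. SAHY1 is a nucleolar protein related to yeast Slx9p, a factor of small subunit assembly, and the sahy1 mutant was described as faulty in the processing of precursor rRNA and hypersensitive to salt. Plants with faulty ribosome assembly are often small and slow growing, and their transcripts for ribosomal proteins and assembly factors can change. Overexpression asks the opposite question, namely which transcripts of the root differ when SAHY1 mRNA is abundant.

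The 6 arrays were alike in overall signal, with array medians from 192 to 197, and no array stood apart. Over the probe sets tested, the correlation of log2 signals was 0.9722 to 0.9787 among SAHY1OE arrays, 0.9749 to 0.9787 among Col-7 arrays, and 0.9686 to 0.9807 for pairs of a SAHY1OE and a Col-7 array. Genes of root hairs and of root cell walls gave clear signals, such as EXPA7 (708, 724 and 758 in SAHY1OE, against 619, 813 and 766 in Col-7). No endodermis, xylem, phloem, root tip or epidermis marker of the lists could be matched to a probe set of 1 gene, so those cell types were not checked. In such bulk RNA a change in the number of cells of a type and a change in RNA per cell cannot be told apart.

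SAHY1OE and Col-7 roots differed in very few transcripts. Of 13834 probe sets tested, 2 were higher in SAHY1OE (0.0145%) and 1 was lower (0.00723%) at a limma adjusted p under 0.05 with a fold above 2. The 2 higher ones were SAHY1 itself and AT1G71140, and the lower one was QQS. One more, AT5G65300, had an adjusted p of 0.0484 at a fold of 1.84. In a fit to the 6 SAHY1OE and Col-7 arrays alone only SAHY1 passed. QQS was kept for the test only through Col-7, the group in which it is high, and AT1G71140 only through sahy1. Without adjustment, 291 probe sets were higher (2.1%) and 361 lower (2.61%) at p under 0.05. All 3 SAHY1OE arrays lay above all 3 Col-7 arrays for 555 probe sets (4.01%), and below them for 655 (4.73%). The log2 fold changes had a median of 0.00 and ran from -0.30 at the 5th to 0.29 at the 95th percentile, and the median standard error was 0.16. For 97.97% of the probe sets tested the whole 95% interval of the change lay within 2-fold in either direction. A larger change of a single transcript would thus have been visible for most of those tested. Probe sets left out of the test for low signals have no such interval. The same fit called 572 probe sets between sahy1 and Col-0 (4.13%).

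**Figure D1:**
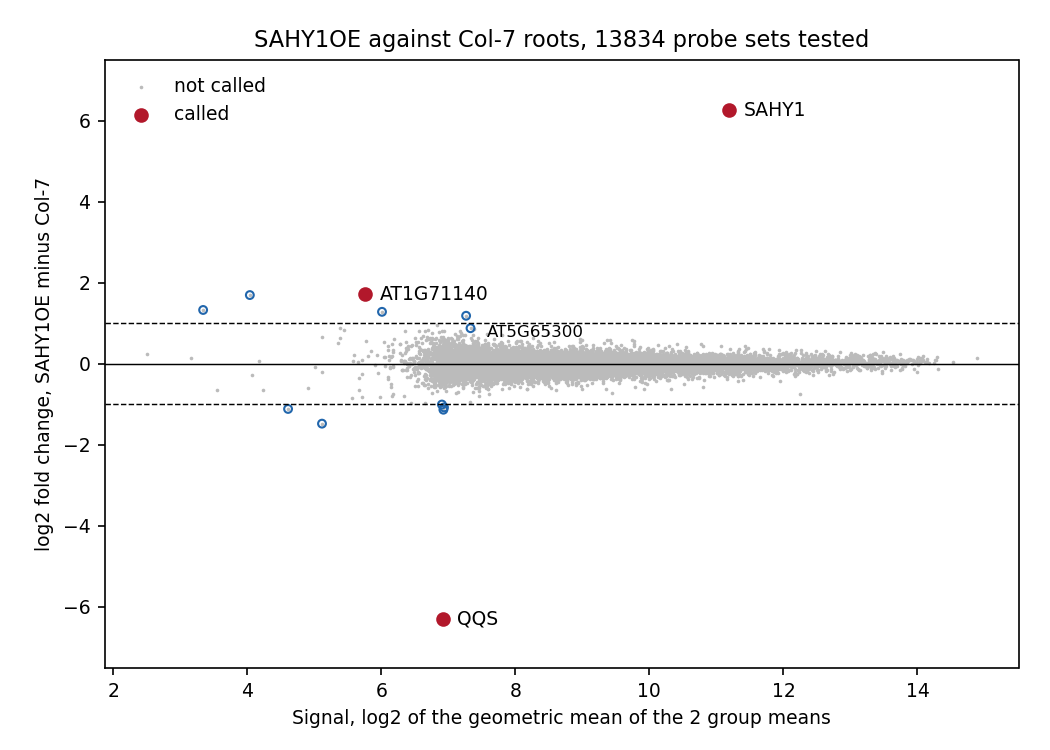
Log2 fold change of SAHY1OE minus Col-7 (vertical axis) against signal (horizontal axis, log2 of the geometric mean of both group means) for the 13834 probe sets tested. Red points passed the test, open blue circles mark the other probe sets beyond 2-fold and AT5G65300, and dashed lines mark 2-fold; SAHY1 and QQS lie at 6.27 and -6.29, and nearly all other probe sets lie between the dashed lines.

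SAHY1 (AT2G01640, on chromosome 2) had signals of 20572, 20069 and 20789 in SAHY1OE roots, against 284, 259.5 and 252 in Col-7 roots. The groups were far apart and the 3 arrays of each were close together, with means of 20477 ± 370 in SAHY1OE and 265 ± 16.4 in Col-7 (SD, n = 3 arrays each). The log2 fold change was 6.27 with a standard error of 0.72 (77.3-fold higher, limma adjusted p = 0.00418, 95% interval 4.72 to 7.83). The width of that interval came from the other arrays in the fit, since SAHY1 varied widely in sahy1 (65.5, 7.00 and 143), and was steadier in Col-0 (451, 258 and 336). With the 6 SAHY1OE and Col-7 arrays alone the standard error was 0.13 and the adjusted p 3.82e-09. The call was lost (adjusted p = 0.187) when low signals were not filtered in the fit to 12 arrays, and held (adjusted p = 0.000284) when they were not filtered in the fit to 6. At 265 the Col-7 level was close to the 348 ± 97 of Col-0 (SD, n = 3), and the difference between these wild types was not called (limma adjusted p = 0.882).

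AT1G71140 encodes a carrier of the MATE family, membrane proteins that export organic compounds. Its signals were 87.7, 107 and 94.7 in SAHY1OE, against 25.1, 22.1 and 43.9 in Col-7, so the groups did not overlap (log2 fold change 1.73, standard error 0.20, 3.32-fold higher, limma adjusted p = 0.00418). In the other groups it was 135, 141 and 138 in sahy1 and 100.3, 108 and 101 in Col-0. The Col-7 arrays were thus the low ones among all 12, and Col-7 also differed from Col-0 (log2 fold change of Col-7 against Col-0 -1.83, limma adjusted p = 5.91e-05), a comparison that shares the Col-7 arrays. AT1G71140 entered the test only through its level in sahy1, since every SAHY1OE, Col-7 and Col-0 signal was under the 40th percentile of its array, and its call was lost with no filter on low signals (adjusted p = 0.16).

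QQS (AT3G30720, Qua-Quine Starch) is a gene found only in Arabidopsis thaliana that acts on how carbon is shared between starch and protein, and its transcript level is known to vary among wild-type stocks with DNA methylation at the gene, which was not measured here. Its signals were 2.17, 8.95 and 45.9 in SAHY1OE, all under the 40th percentile of their arrays, against 938, 772 and 596 in Col-7. The fall was 6.29 on the log2 scale with a standard error of 0.84 (limma adjusted p = 0.0148), and its size is uncertain because the SAHY1OE signals lie near background and spread widely. QQS entered the test only through Col-7, the group in which it is high. Its call was lost with no filter on low signals (adjusted p = 0.297), without SAHY1OE replicate 2 (0.0896) and without Col-7 replicate 1, 2 or 3 (0.131, 0.1 and 0.0663). In the other groups QQS was 58.4, 48.3 and 34.2 in sahy1 and 1.82, 10.7 and 9.19 in Col-0. Here, too, the Col-7 arrays stood apart from the other 9, with a log2 fold change of 7.07 for Col-7 against Col-0 (limma adjusted p = 0.000127).

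AT5G65300, a gene of unknown function, was lowest in Col-7, as AT1G71140 was and unlike QQS. Its signals were 252, 196 and 208 in SAHY1OE, against 118, 132 and 106 in Col-7, and it averaged 224 in sahy1 and 223 in Col-0. In the fit to the 6 arrays alone only SAHY1 passed, while AT1G71140 and QQS had adjusted p = 0.109 and AT5G65300 had 0.32. The calls for AT1G71140 and QQS therefore rest on the fit to all 12 arrays. For QQS the standard error was no smaller in that fit (0.84) than in the fit to 6 (0.82). Whether the differences in these genes belong to SAHY1 overexpression or to the Col-7 plants used as wild type cannot be told apart with 1 line and 1 wild type.

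**Figure D2:**
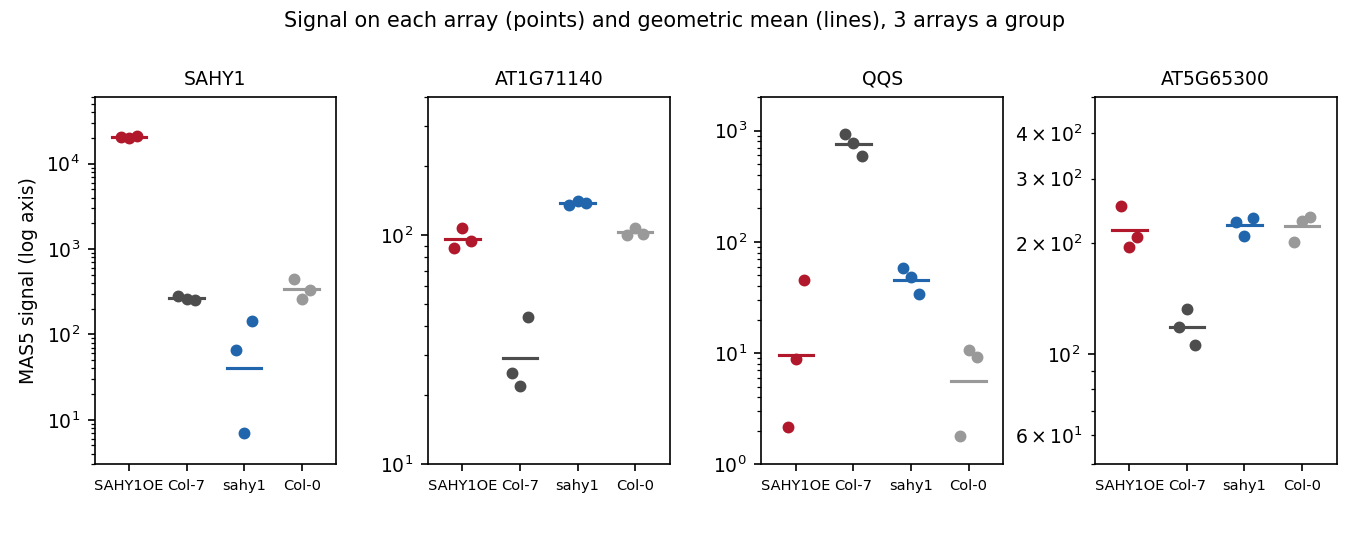
MAS5 signals (log axis) of SAHY1, AT1G71140, QQS and AT5G65300 on each of 12 arrays, with lines at the geometric mean of 3 arrays. SAHY1 is high only in SAHY1OE, whereas for the other genes the 3 Col-7 arrays lie apart from the 9 others.

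Beyond these, 9 of the 12 probe sets with a change above 2-fold did not pass, and all of these but AT2G36650 averaged under 200 in both groups. The highest was AT3G24780, with 52.9, 34.4 and 10.4 in SAHY1OE, against 6.79, 8.73 and 9.36 in Col-7 (log2 fold change 1.70, adjusted p = 0.806). AT2G36650 was measured at higher signals, with 231, 249.8 and 196 in SAHY1OE, against 159, 79.9 and 76.0 in Col-7 (log2 fold change 1.19, adjusted p = 0.905). AT5G24240 had 61.4, 63.7 and 123 in SAHY1OE, against 117, 181 and 239 in Col-7, and the groups overlapped. AT3G24780 was kept for the test only because of its level in sahy1, at a mean of 259.

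Genes beside SAHY1 on chromosome 2 were not called, against 0.0145% called higher and 0.00723% called lower of all probe sets. Among the 5 genes with the nearest lower locus codes and the 5 with the nearest higher ones that had a probe set of 1 gene, 8 were tested and none was called. Their log2 fold changes ran from -0.18 for AT2G01680 to 0.11 for AT2G01580, and AT2G01630, the nearest one below, had signals of 158.3, 160.4 and 195.1 in SAHY1OE, against 162, 189 and 182 in Col-7. AT2G01550 and AT2G01700, the other two, gave signals under the filter, so no test was made.

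The study listed ribosome and translation genes that were higher in sahy1 than in Col-0, and 9 of them were tested here. The list was chosen on the sahy1 and Col-0 arrays, not on the ones compared here. None was called between SAHY1OE and Col-7, with 4 above 0, 5 below 0 and a median of -0.07 on the log2 scale, against 0.00 over all probe sets. The share called over all probe sets was 0.0145% higher and 0.00723% lower. AT3G28500, which encodes an acidic protein of the large ribosomal subunit, had signals of 67.6, 33.9 and 71.4 in SAHY1OE, against 45.0, 93.9 and 61.2 in Col-7, and averaged 1094 in sahy1 and 126 in Col-0. AT2G40010, a ribosomal protein of the L10 family, had 216, 310.4 and 265 in SAHY1OE, against 228, 318 and 325 in Col-7, and averaged 937 in sahy1 and 241 in Col-0. For both, the SAHY1OE and Col-7 signals overlapped and stayed far under the mutant's. AT2G18720, of the elongation factor EF1A family, had 2.63, 10.2 and 40.9 in SAHY1OE, against 13.42, 29.31 and 4.998 in Col-7, with a 95% interval of -1.96 to 1.39 on the log2 scale. AT3G28500 and AT2G18720 were kept for the test only through their level in sahy1.

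The largest shifts in this list were small and opposite in direction. AT5G59240, of the ribosomal protein S8e family, had 182, 216 and 211 in SAHY1OE, against 251, 255 and 276 in Col-7, with no overlap (log2 fold change -0.36, unadjusted p = 0.0148, adjusted p = 1.00). AT1G17960, a threonyl-tRNA synthetase, had 128, 137 and 136 in SAHY1OE, against 108, 109.8 and 97.2 in Col-7, also with no overlap (log2 fold change 0.35, unadjusted p = 0.0467, adjusted p = 1.00). HLL, a ribosomal protein of mitochondria needed for ovule growth, had 243, 238 and 273 in SAHY1OE, against 303, 236 and 256 in Col-7. AT5G44710, AT5G48760 and AT3G49910 differed in another way: they were alike in SAHY1OE and Col-7, and both were near the mutant and above Col-0. AT5G44710, a mitochondrial ribosomal protein, had 1125, 1232 and 1189 in SAHY1OE, against 1166, 1148 and 1141 in Col-7, and averaged 1227 in sahy1 and 535 in Col-0. Between Col-7 and Col-0 these 3 genes differed by 1.11, 1.22 and 1.01 on the log2 scale.

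**Figure D3:**
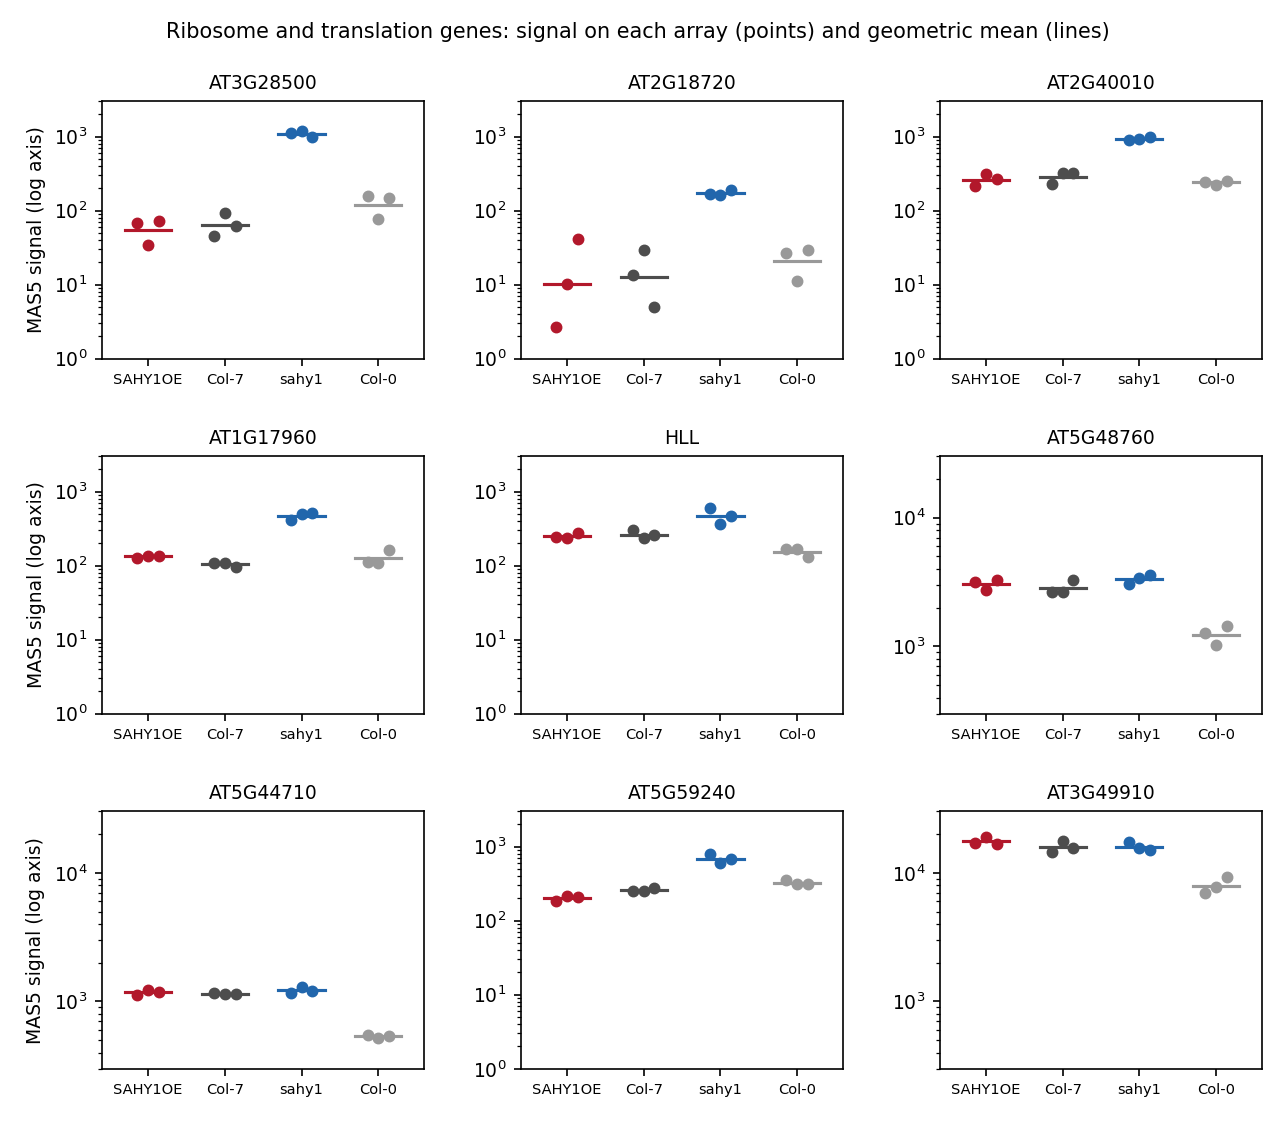
MAS5 signals (log axes) of the 9 tested ribosome and translation genes on each array, with lines at the geometric mean of 3 arrays. SAHY1OE and Col-7 points overlap in all panels but those of AT5G59240 and AT1G17960, while sahy1 averages 1094 and Col-0 126 for AT3G28500.

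The ribosomal protein genes that could be tested had almost the same signal in SAHY1OE and Col-7 roots. Calls over all probe sets came to 0.0145% higher and 0.00723% lower. For the large subunit, 75 of 132 listed genes were tested and none was called, with 45 above 0 and 30 below 0. Most of the others had no probe set of 1 gene. The median of the 75 was 0.04 on the log2 scale, and all 75 intervals lay within 2-fold. The summed signal of all 83 with a probe set of 1 gene, tested or not, was 480785 to 499350 over the SAHY1OE arrays. Over the Col-7 arrays it was 458877 to 486202, so the ranges overlapped. For the small subunit, 42 of 99 listed genes were tested and none was called, with 25 above 0 and 17 below 0. Their median was 0.02, and all 42 intervals lay within 2-fold. The extremes were AT3G55170 of the large subunit, at 544, 629 and 653 in SAHY1OE, against 573, 375 and 559 in Col-7 (log2 fold change 0.30), and AT5G59240 of the small subunit, described above. SAHY1OE arrays lay wholly above Col-7 arrays for 5 of the 75 and 1 of the 42 genes, and wholly below for 2 of the 75 and 4 of the 42, against 4.01% and 4.73% of all probe sets. In sahy1 against Col-0 the medians of the same genes were 0.22 for the large and 0.28 for the small subunit. The group means of that contrast use none of the SAHY1OE or Col-7 arrays.

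Ribosome biogenesis factors, which cut, modify or fold precursor rRNA or belong to RNA polymerase I, were tested for 25 of 57 listed genes. Calls were made for 0 of the 25, against 0.0145% called higher and 0.00723% called lower of all probe sets. Below 0 lay 20 of them and above 0 lay 5, against 49.3% above 0 of all probe sets. The median of their log2 fold changes was -0.09, and all 25 intervals lay within 2-fold. The lowest was AT4G26600, a member of the family of rRNA methyltransferases of the nucleolus, with 121, 109.9 and 85.6 in SAHY1OE, against 146, 156 and 133 in Col-7 (log2 fold change -0.47, unadjusted p = 0.0138, adjusted p = 1.00). IMP4, a part of the complex that makes the first cuts of the small subunit precursor in yeast, had 979, 804 and 507 in SAHY1OE, against 1011, 1021 and 834 in Col-7. NRPA1, the largest subunit of RNA polymerase I, had 199.7, 299 and 332 in SAHY1OE, against 317, 361 and 297 in Col-7, and the arrays overlapped. The highest was AT5G38720, with 348, 281 and 220.2 in SAHY1OE, against 231, 197 and 228 in Col-7 (log2 fold change 0.35). The summed signal of the list was 26006 to 26730 over SAHY1OE arrays, against 26381 to 28228 over Col-7 arrays, with ranges that overlap. In sahy1 against Col-0 the median of these genes was 0.37.

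The list of proteins that co-immunoprecipitated with SAHY1 in the study, many of them ribosomal, held 25 genes. Only 12 of them had a probe set of 1 gene and were tested, and none of the 12 was called (7 above 0, 5 below 0, median log2 fold change 0.01). Of all probe sets 0.0145% were called higher and 0.00723% lower. AT2G37190, a protein of the large subunit, had 11801, 10200 and 10358 in SAHY1OE, against 9422, 9340 and 8972 in Col-7, with no overlap (log2 fold change 0.22, unadjusted p = 0.074). At the other end was AT5G15550, which had 629.6, 508 and 669 in SAHY1OE, against 793, 615 and 652 in Col-7 (log2 fold change -0.19).

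The ATH1 array also carries control probe sets for rRNA, which is not polyadenylated and is seen only as far as it is primed in labelling. The 25S rRNA control gave 532, 1025 and 445 in SAHY1OE, against 321, 440.0 and 208 in Col-7. All 3 SAHY1OE arrays lay above the 3 Col-7 arrays, though the closest pair was 445 and 440.0, and the log2 difference was 1.01, or 2.02-fold (exact permutation, two-sided, p = 0.1, below which 3 against 3 arrays cannot go). The difference was 0.66 without SAHY1OE replicate 2 and 1.27 without Col-7 replicate 2. In the other groups the same probe set read 1190, 4279 and 1071 in sahy1 and 162, 207 and 235 in Col-0. The 5S rRNA control overlapped, at 26.4, 29.1 and 29.7 in SAHY1OE, against 9.44, 14.7 and 64.6 in Col-7 (exact permutation p = 0.7). Of all 64 control probe sets, 3 had every SAHY1OE array above every Col-7 array, against 4.01% of the probe sets tested. The opposite held for 0 of the 64, against 4.73%. The 3 were the 25S rRNA control, a middle probe set of GAPDH and a spiked bacteriophage control. Ratios of 3′ to 5′ probe sets of GAPDH, actin and ubiquitin, a measure of RNA integrity, overlapped between the groups (exact permutation p = 0.4 to 0.9).

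Probe sets that differed between sahy1 and Col-0 roots lay on both sides of 0 in SAHY1OE. Of 328 that were higher in sahy1 than in Col-0, 175 were above 0 and 153 below 0 in SAHY1OE against Col-7. Their median was 0.02 on the log2 scale, and 1 was called, QQS, which entered the test only through Col-7. Of 244 that were lower in sahy1, 125 were above 0 and 119 below 0, with a median of 0.01 and 1 call, SAHY1, the overexpressed gene itself. Over all probe sets tested, 0.0145% were called higher and 0.00723% lower. The share above 0 was 53.4% and 51.2%, against 49.3% for all probe sets tested. The 2 contrasts have no array in common.

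**Figure D4:**
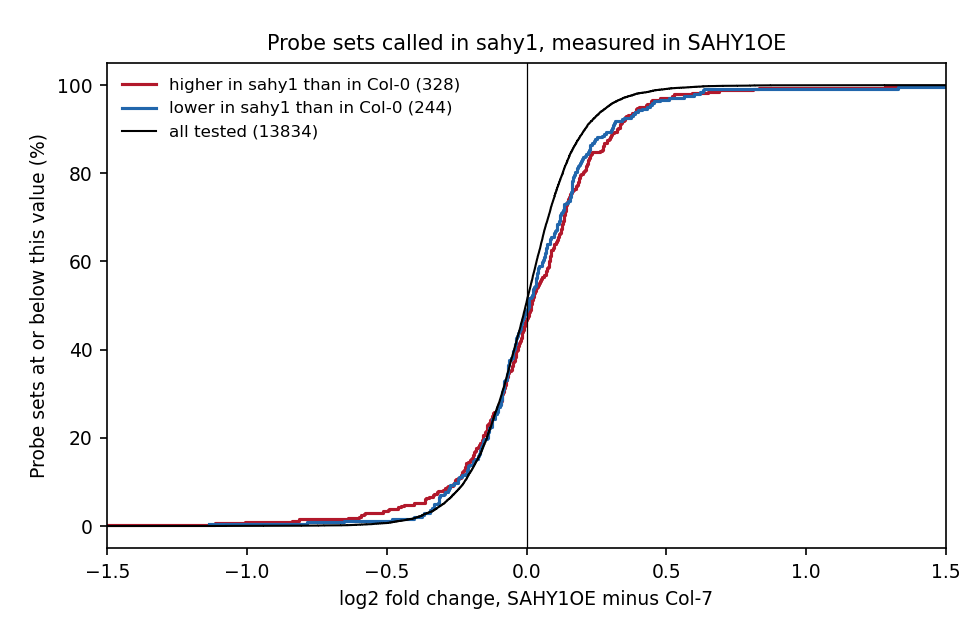
Cumulative share of probe sets (vertical axis, %) by log2 fold change of SAHY1OE minus Col-7 (horizontal axis), for 328 probe sets higher in sahy1 than in Col-0 (red), 244 lower (blue) and all 13834 tested (black). Both coloured curves cross 0 near the middle, with medians of 0.02 and 0.01; SAHY1, QQS, AT3G24780 and AT1G71140 lie beyond the ends of the horizontal axis.

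Genes that plants switch on when mitochondria are impaired included AT1G71140, described above, as 1 call among 6 tested, against 0.0145% called higher of all probe sets (4 above 0, 2 below 0, median log2 fold change 0.18). Of the 6, all but NDB2 were under the filter in both SAHY1OE and Col-7 and were kept only through sahy1 or, for AT5G43450, Col-0, so the count and the median describe mostly low signals. NDB4, an NADH dehydrogenase of the outer face of the inner mitochondrial membrane, had 9.61, 5.11 and 3.72 in SAHY1OE, against 4.80, 3.08 and 7.67 in Col-7, and averaged 208 in sahy1 and 4.00 in Col-0. AT2G03130 had 6.27, 12.3 and 9.24 in SAHY1OE, against 5.998, 13.34 and 6.729 in Col-7, and averaged 267 in sahy1. NDB2, a second external NADH dehydrogenase, was well measured at 744, 663 and 715 in SAHY1OE, against 772, 742 and 623 in Col-7 (log2 fold change -0.01). Only 1 of the 6 intervals, that of NDB2, lay within 2-fold. That of AT1G71140 ran from 1.31 to 2.16 on the log2 scale, and the others were too wide to tell a 2-fold change from none.

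None of the lists of cell wall, sugar transport and detoxification genes held a call. Over all probe sets tested 0.0145% were called higher and 0.00723% lower, so lists of this size would seldom hold one. Root peroxidases, which cross-link wall polymers and make or use hydrogen peroxide, had 12 genes above 0 and 16 below 0 of 28 tested (median -0.01). AT1G49570 was highest among them, at 139, 117 and 162 in SAHY1OE, against 85.0, 111 and 119 in Col-7 (log2 fold change 0.41), and AT4G26010, a peroxidase of root hairs, was lowest, at 2412, 2724 and 3506 in SAHY1OE, against 3168, 3809 and 3855 in Col-7 (log2 fold change -0.34). Both pairs of groups overlapped. Of 7 expansins, which loosen walls, 5 were above 0, and of 7 xyloglucan endotransglucosylases 3 were above 0. Of 10 glutathione S-transferases 5 lay on each side of 0. GSTU28, which was low in sahy1 (mean 147, against 1011 in Col-0), had 986, 1018 and 994 in SAHY1OE, against 905, 896 and 1028 in Col-7. SWEET11, a sucrose transporter that averaged 91.5 in sahy1 and 1292 in Col-0, had 274, 364 and 607 in SAHY1OE, against 466, 438 and 568 in Col-7 (log2 fold change -0.31). The UDP-glycosyltransferases had 10 above and 14 below 0 of 24 tested, cytochromes P450 had 4 and 4 of 8, WRKY transcription factors 3 and 2 of 5, heat shock genes 3 and 2 of 5, and auxin genes 1 and 3 of 4. CYP71B34 was the highest of these, at 232, 203 and 304 in SAHY1OE, against 211, 160.5 and 165 in Col-7 (log2 fold change 0.45, unadjusted p = 0.0379). In the 8 lists with 1 to 3 members tested, the sugar transport list of SWEET11 among them, none of 14 members was called, and their log2 fold changes ran from -0.31 to 0.27. Another 11 lists had no member tested. The lists held 225 cytochromes P450, 67 WRKY transcription factors, 33 heat shock genes and 50 auxin genes, so few of each were tested. The auxin genes tested were GH3.3, LBD16, IAA18 and WES1, with no PIN gene and no AUX1. WRKY22, WRKY53, AT5G51440, GSTU18, EXPA8 and AT1G34510 were kept for the test only through sahy1 or Col-0.

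Root hair markers, photosynthesis genes and histones held no call, against 0.0145% called higher and 0.00723% called lower of all probe sets. The 4 root hair markers, 2 of them the expansins EXPA7 and EXPA18, had 1 above and 3 below 0 (median -0.14). EXPA18 had 584, 559.7 and 769.7 in SAHY1OE, against 692, 565 and 759 in Col-7. Photosynthesis genes, used as a marker of green tissue, were detected in both groups, with 7 of 8 tested and all 7 below 0 (median -0.13, 0 called). Of 38 listed, only these 8 had a probe set of 1 gene. SAHY1OE arrays lay wholly below Col-7 arrays for 2 of the 7, against 4.73% of all probe sets, of which 49.3% were above 0. The summed signal of all 8, the untested SBPASE among them, was 4696 to 4998 in SAHY1OE, against 5258 to 5670 in Col-7, ranges that did not overlap. RCA, the activase of Rubisco, had 1060, 833 and 913 in SAHY1OE, against 1100, 1063 and 1164 in Col-7 (log2 fold change -0.25). PSAN, a subunit of photosystem I, had 675, 661 and 498 in SAHY1OE, against 684, 851 and 728 in Col-7. The part of this difference in any other result was not tested. All 5 histone genes tested were above 0 (median 0.15, 0 called). SAHY1OE arrays lay wholly above Col-7 arrays for 2 of the 5, HTR12 and HTB1, against 4.01% of all probe sets. HTR12, the histone H3 of centromeres, had 194, 161 and 139.5 in SAHY1OE, against 126, 114 and 120.1 in Col-7, without overlap (log2 fold change 0.44, unadjusted p = 0.0338, adjusted p = 1.00). HTB11, a histone H2B gene, was alike in both groups at 1733, 1943 and 1722 in SAHY1OE, against 1613, 1847 and 1704 in Col-7, and averaged 1828 in sahy1 and 72.1 in Col-0.

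**Figure D5:**
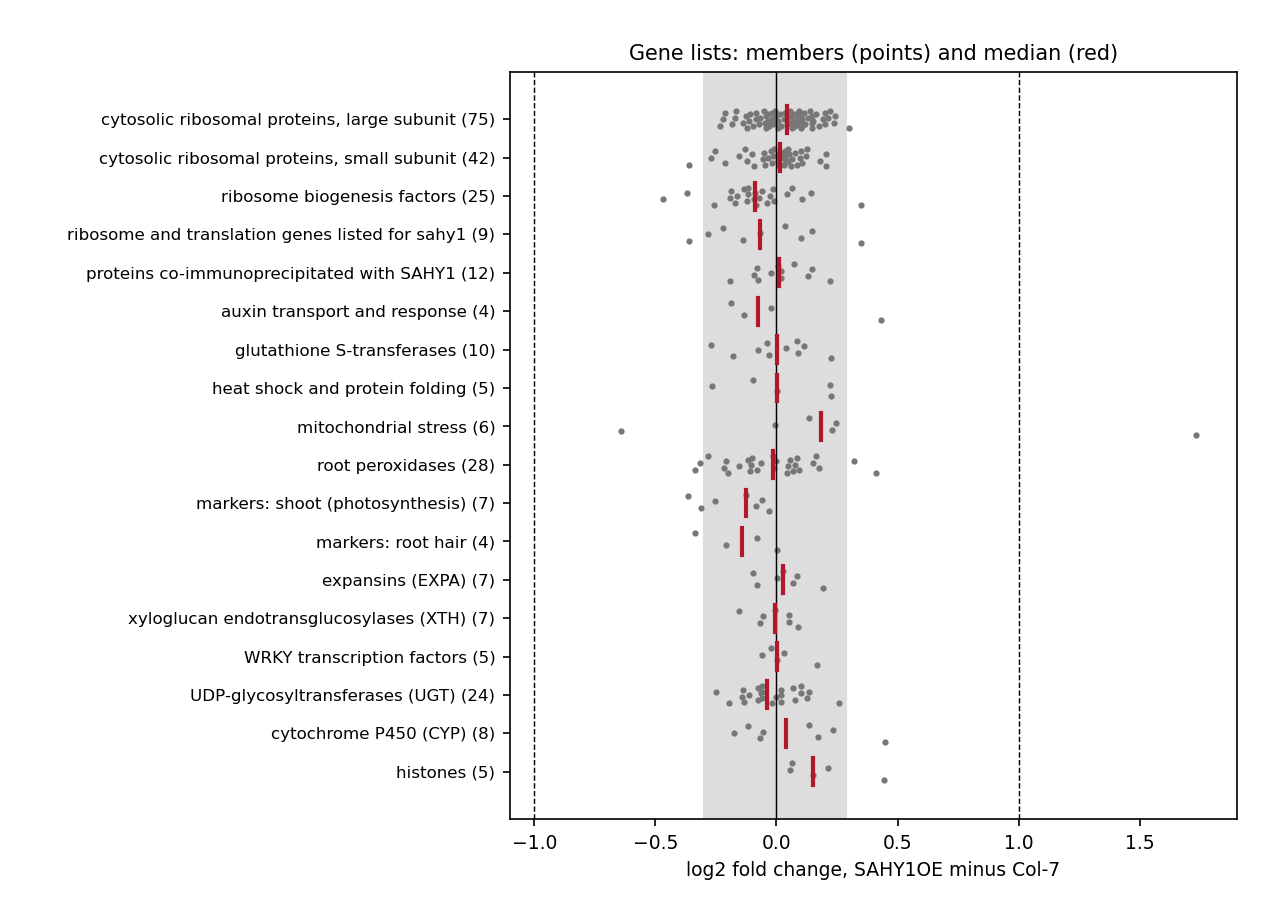
Log2 fold change of SAHY1OE minus Col-7 (horizontal axis) for the tested members (grey points) of the 18 gene lists with 4 or more, with each list's median in red and the number tested in parentheses; points are spread vertically for legibility. The grey band spans -0.30 to 0.29, the 5th to 95th percentile of all probe sets, dashed lines mark 2-fold, and AT1G71140 at 1.73 is the only member beyond them.

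Of the 7447 tested probe sets paired with 1 gene, 14 were higher and 24 lower within set limits without passing the call. The limits were a mean of at least 200 in SAHY1OE or Col-7, arrays that did not overlap and an unadjusted p under 0.01. Over all probe sets tested, arrays did not overlap for 4.01% on the higher and 4.73% on the lower side. The 12 genes with the greatest change on each side are named here. Apart from AT5G65300, their adjusted p-values were 0.643 or above, so these are values and not calls. On the higher side, AT2G36650 and AT5G65300 came first, followed by AT1G64450, with 212, 219.5 and 222 in SAHY1OE, against 188, 124 and 73.1 in Col-7. AT4G33480 had 285, 239 and 341 in SAHY1OE, against 179, 158 and 184 in Col-7 (log2 fold change 0.72). AT3G53580, a diaminopimelate epimerase of lysine synthesis, was among the best measured, with 1430, 1392 and 1557 in SAHY1OE, against 1064, 1027 and 1122 in Col-7 (log2 fold change 0.45, standard error 0.11, adjusted p = 0.806). AT1G72250, a kinesin, had 190.1, 167 and 256 in SAHY1OE, against 130.4, 119 and 138 in Col-7. The others were AT5G15320, AT1G61730, AT2G25100, AT3G43270, AT2G25735 and AT5G25640, with log2 fold changes from 0.41 to 0.59. For all 12 genes on this side the Col-7 mean was the lowest of the 4 groups. The limits pick genes that are low in Col-7 relative to SAHY1OE, so part of that order was set by the choice. Whether the differences belong to SAHY1 overexpression or to the Col-7 plants was not tested.

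On the lower side, AT2G05540, a glycine-rich protein, had 126, 126 and 94.3 in SAHY1OE, against 192, 236 and 233 in Col-7 (log2 fold change -0.94, adjusted p = 0.806), and averaged 69.8 in sahy1 and 83.3 in Col-0. CML43, a calmodulin-like calcium sensor, had 502, 489 and 575 in SAHY1OE, against 629.5, 918 and 909.9 in Col-7 (log2 fold change -0.63), and averaged 382 in sahy1 and 254 in Col-0. For both genes the SAHY1OE mean lay between those of Col-7 and Col-0. AT2G47850, a zinc finger protein, had 246, 221 and 232 in SAHY1OE, against 344, 389 and 337 in Col-7, and the lowest p-value of the group (log2 fold change -0.61, unadjusted p = 0.000442, adjusted p = 0.643). AT1G72390, named PHL for late flowering dependent on phytochrome, had 217, 215 and 228 in SAHY1OE, against 288, 329 and 369 in Col-7 (log2 fold change -0.57). AT3G18680, a UMP kinase of plastids, had 177, 183 and 137 in SAHY1OE, against 218, 262 and 238 in Col-7. Its means were 167 in sahy1 and 160 in Col-0. The plastid protein CcdA and AT2G32970, AT5G14210, AT4G26060, AT1G70350, AT3G17750 and AT1G33810 made up the rest, with log2 fold changes from -0.75 to -0.53. On this lower side the Col-7 mean was the highest of the 4 groups for all named genes but AT4G26060 and AT1G70350.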

How the data were processed

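The authors deposited MAS5 signal intensities on a linear scale, with the trimmed mean of every array (2% at each end left out) at 500. The methods name GeneSpring GX 10.0.1 but no MAS5 version, and 10 µg of total RNA per array. Log2 was taken after raising signals under 1 to 1. Probe sets entered the test if 3 of 3 arrays in some group were at or above the 40th percentile of their own array, which left 13834 of 22746. Limma 3.58.1 (R 4.3.3) estimated a mean for each of the 4 groups from 12 arrays, with eBayes moderation and p-values adjusted by Benjamini-Hochberg over the probe sets tested. Calls had adjusted p below 0.05 and more than 2-fold change. The script was tested on simulated data. Named genes were SAHY1 and its neighbours, all calls, list extremes, and the 12 highest and 12 lowest uncalled genes under the limits given with them; other list members were named after their values were seen. A probe set took a gene name only where the platform table paired it with 1 gene (13436 probe sets). Gene lists and tests were chosen with earlier results of these data known. Alternatives changed the scaling (quantile, median centring), the added constant (32), the filter (none, or the 60th percentile), the arrays fitted (6, or all but 1), the variance trend, the fold threshold and the test (the methods' unpaired test, a replicate block). Figures used Python 3.11.15 and matplotlib 3.10.9. Arrays have no sequencing depth, and 3 arrays a group limit the precision.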

Additional observations from a re-analysis of the deposited data

How the results depend on the processing

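The 3 calls (2 higher, 1 lower) were the same under quantile normalization, median centring and log2 after adding 32, and the median change of all probe sets moved by under 0.1 on the log2 scale. With no filter on low signals the fit to 12 arrays called 0 probe sets (0 higher, 0 lower), and with no filter and the 6 arrays alone, a setting chosen after the data were seen, it called 2, both higher (SAHY1 and AT3G25490) and 0 lower. The 6 arrays alone and the methods' unpaired test each gave 1 call, SAHY1, with 1 higher and 0 lower. A filter at the 60th percentile, which leaves out AT1G71140, and an intensity trend each gave 2 calls, 1 higher and 1 lower, SAHY1 and QQS. With no threshold on the fold there were 4, 3 higher and 1 lower. Leaving out 1 array at a time gave 2 to 4 calls, 2 to 3 higher and 0 to 2 lower. SAHY1 and AT1G71140 passed in each of these 6 fits. QQS was lost without SAHY1OE replicate 2 (adjusted p = 0.0896) and without Col-7 replicate 1, 2 or 3 (adjusted p = 0.131, 0.1 and 0.0663). AT3G24780 was called without SAHY1OE replicate 3, and 1 unnamed probe set without SAHY1OE replicate 1. The replicate block gave 3 calls (2 higher, 1 lower), the same genes. Deviations of same-numbered SAHY1OE and Col-7 arrays correlated at 0.23, 0.06 and 0.22, so the numbers were not taken as pairs. The log2 difference of the 25S rRNA control stayed above 0 in each setting tried. List medians lay between -0.32 and 0.35, and 40 of 304 changed sign. Arrays limit what low signals can show.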
